A study of Mus musculus with 12 samples.

Results

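The clustered protocadherins are cell surface proteins of the cadherin superfamily, encoded on mouse chromosome 18 by the neighbouring alpha, beta and gamma clusters. The genes described here are all rows of the deposited expression tables whose symbol starts with Pcdha, Pcdhb or Pcdhg and whose biotype is protein-coding. There are 33 of them among 27942 genes: 13 alpha genes (11 variable genes plus the C-type genes Pcdhac1 and Pcdhac2), no beta gene, and 20 gamma genes (12 of the gamma-A type, 6 of the gamma-B type and the C-type genes Pcdhgc3 and Pcdhgc5). The annotation release used for comparison, GENCODE M21, lists 14 Pcdha, 22 Pcdhb and 21 Pcdhg protein-coding genes. A further gene with the symbol Pcdha11, all 22 Pcdhb genes and Pcdhgc4 were not analysed here.

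Each alpha or gamma variable exon has its own promoter and encodes the whole extracellular part, the membrane span and the start of the cytoplasmic tail. It is spliced to constant exons shared by the cluster, so isoforms of a cluster differ in what they bind and share the end of the tail. The proteins are known best in neurons, where the extracellular domains bind the same isoform on another cell and where the choice of variable promoters, which depends on CTCF and cohesin, gives single cells different sets. C-type genes lie at the downstream end of the variable exons and are chosen less at random.

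The libraries were made from C2C12, a line of mouse myoblasts that form myotubes after serum is lowered. The cells were grown to 80% density with 10% fetal bovine serum, moved to 2% horse serum, and taken on day 7 of differentiation. One group was untreated (control) and the other received 25 µmol/L 4-octyl itaconate (OI), an itaconate ester that enters cells. Each group had 3 libraries, and a further 3 control and 3 OI samples were not analysed here. No genetic change is named for either group, and both groups come from 1 cell line. Nothing in the labels ties the libraries to separate cultures, and p-values here therefore reflect only how far these libraries differ, in part perhaps for technical reasons. In bulk RNA, fewer cells that express a gene and less RNA per cell cannot be told apart.

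Values are FPKM (fragments per kilobase, relative to the number mapped). Library sizes recovered from the values were 24441000 to 36274000 reads. Control replicate 1 stood apart: the FPKM of all genes in its table summed to 189789, against 51797 to 56771 in the other 5 libraries. The fits were therefore also made without it, and some sums and values are also given without it. Of the 73 genes on the 5 cell type marker lists (myotube, myoblast, neuron, glia and fibroblast) 1 was in the tables, the myotube troponin Tnnc1, at 126 ± 15.1 FPKM in control and 23.2 ± 1.39 in OI (mean ± SD, n = 3). The labelled cell type and the presence of other cell types could not be checked further with these lists.

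The gene structure decides how the rows can be read. The alpha genes span positions 36930184 to 37187661 and the gamma genes 37661793 to 37841873 of chromosome 18 (mm10, plus strand), and all 33 have the same coordinates in GENCODE M21. The reference transcript of each gene was chosen as its longest with 4 exons, and it has 1 exon of its own followed by 3 that are shared. For all members except Pcdhgc5 the deposited length is that of this transcript. The own first exon holds 2542 to 2961 bases in the gamma genes, and the shared exons add 2116 to 2119 bases, which is 41.7% to 45.5% of the transcript. In the alpha genes the first exon holds 2346 to 3028 bases and the shared exons 2860, or 48.6% to 54.9%. Every gamma gene shares exons 2 and 3 with 20 other gamma rows, the 19 other members and Pcdhgb8, a gamma-B row whose biotype is polymorphic pseudogene and which is therefore not a member. Each alpha gene shares them with 12 other alpha rows.

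First exons can be told apart by sequence for most genes. Of all 100-base windows of a gamma reference transcript, 36.0% to 59.3% (median 55.9%) occur in no other Pcdha, Pcdhb or Pcdhg gene of GENCODE M21. Within the first exon alone the share is 62.6% to 100%, with a median of 100%. The lowest first-exon value belongs to Pcdhga4. In the alpha genes 41.6% to 52.3% of the windows (median 44.9%) occur in no other such gene, and 87.0% to 100% within the first exon (median 94.9%). The deposited tables give 1 value per gene, so reads from a gene's own first exon and reads from the shared exons cannot be told apart in them. All members are reported as rows, and every gene of a cluster has to be taken as uncertain by the amount of shared-exon reads it was given.

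Pcdhgc3, the first of the gamma C-type genes, had the highest mean of all members and the most even values among the abundant ones. In the order of the replicate numbers, its values were 79.1, 87.0 and 75.6 FPKM in control and 79.2, 82.8 and 82.6 in OI. The groups overlapped and the coefficient of variation over all 6 libraries was 4.87%. The mean was 80.5 ± 5.83 FPKM in control and 81.5 ± 2.06 in OI (SD, n = 3). In limma the difference on the log2(FPKM + 1) scale was 0.02 ± 0.08 (SE), with a 95% confidence interval of -0.16 to 0.20 and an adjusted p of 0.941. Under quantile normalization the difference was 0.24, outside that interval, with an unadjusted p under 0.05 and a limma adjusted p of 0.285. Of the 2568 bases of the Pcdhgc3 first exon, 1559 also lie within the antisense row BC037039, described below. Without the strand setting, reads of that stretch cannot be assigned to either row. The other gamma C-type gene in the tables, Pcdhgc5, was far lower, at 0.853, 0.580 and 0.494 FPKM in control and 0.616, 0.506 and 0.516 in OI, and its groups overlapped too.

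Besides Pcdhgc3, 1 gamma row carried most of the remaining FPKM in each library, and it was not the same row throughout. In control replicate 1 it was Pcdhgb1 at 25.2 FPKM, in control replicate 2 Pcdhgb2 at 65.0, and in control replicate 3 Pcdhgb8 at 70.2. In OI replicate 1 it was Pcdhgb6 at 64.2 FPKM, and in OI replicates 2 and 3 it was Pcdhga9 at 58.6 and 43.3. The 6 libraries therefore had 5 different leading rows, no row led in both groups, and only Pcdhga9 led in more than 1 library. The leading row held 80.9%, 87.6% and 84.1% of the gamma FPKM outside Pcdhgc3 (Pcdhgb8 included) in the control libraries and 89.2%, 92.2% and 73.6% in the OI libraries. Apart from Pcdhgc3, 1 gamma row reached 10 FPKM in each library except OI replicate 3, where 2 did.

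**Figure D1:**
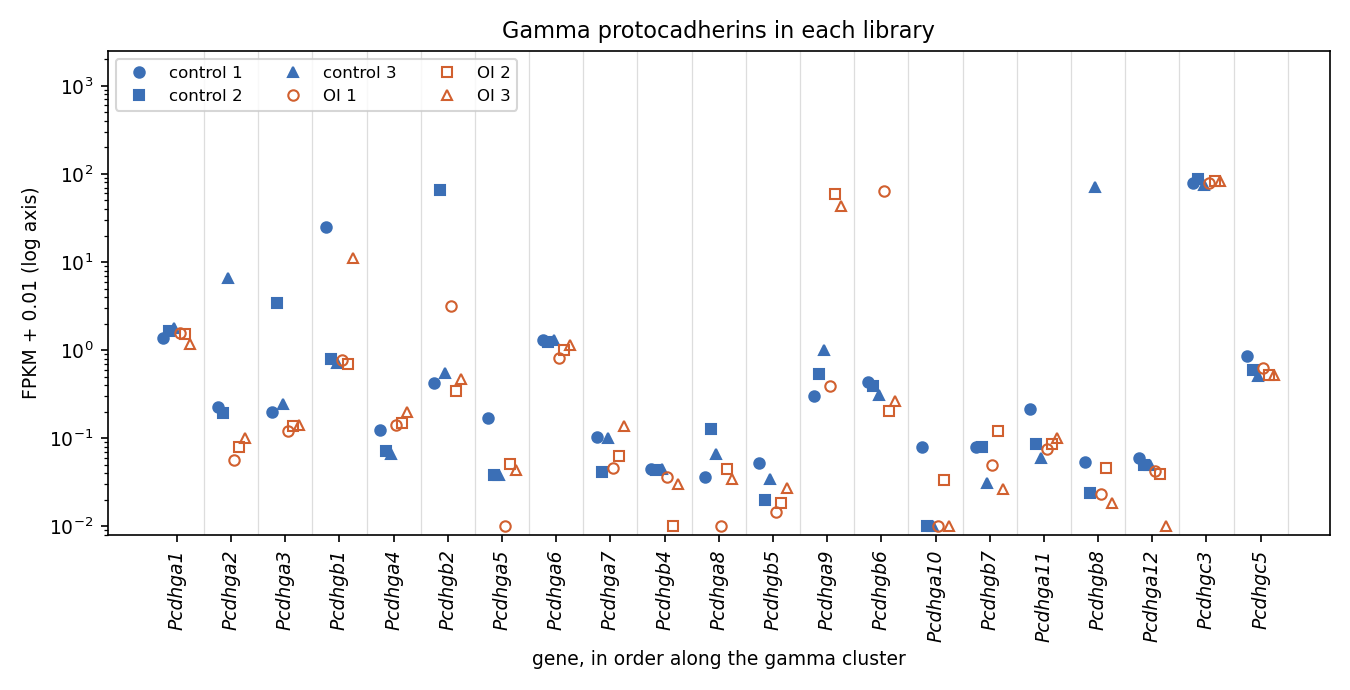
FPKM + 0.01 (log axis) of each gamma member and Pcdhgb8 in the 6 libraries, with genes in their order along the cluster; filled blue symbols are control and open orange symbols OI. Pcdhgc3 has all 6 points between 75.6 and 87.0 FPKM, while Pcdhgb1, Pcdhgb2, Pcdhga9, Pcdhgb6 and Pcdhgb8 each have 1 or 2 points above 10 FPKM and the others at or below 3.18.

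Where they did not lead, these rows were at or below 3.18 FPKM, except Pcdhgb1 in OI replicate 3 at 11.2. Pcdhgb2 was listed at 0.411, 65.0 and 0.546 FPKM in control and 3.18, 0.333 and 0.463 in OI. Pcdhgb6 was listed at 0.419, 0.385 and 0.299 FPKM in control and 64.2, 0.194 and 0.258 in OI. Both genes encode gamma-B isoforms, and the highest library of each stood 141 times (Pcdhgb2) and 215 times (Pcdhgb6) above the median of the other 5.

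Pcdhgb1, the first gamma-B gene along the cluster, was listed at 25.2, 0.783 and 0.710 FPKM in control and 0.760, 0.692 and 11.2 in OI, so that 1 library of each group was high. Pcdhga9, a gamma-A gene, was listed at 0.293, 0.522 and 0.997 FPKM in control and 0.379, 58.6 and 43.3 in OI. Apart from Pcdhgc3, Pcdhga9 was the only gamma row above 10 FPKM in 2 libraries of 1 group, and its value in OI replicate 1 lay inside the control range. The pseudogene row Pcdhgb8 was listed at 0.0443, 0.0142 and 70.2 FPKM in control and 0.0135, 0.0358 and 0.00844 in OI.

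A second, smaller step was seen in the rows that came next. Pcdhga2 was listed at 0.218, 0.182 and 6.51 FPKM in control and 0.0465, 0.0706 and 0.0913 in OI. Pcdhga3 was listed at 0.191, 3.42 and 0.233 FPKM in control and 0.112, 0.128 and 0.132 in OI. For both gamma-A genes every OI value was below every control value, and the control mean rested on 1 library. Of all genes with 0.1 FPKM or more in at least 3 libraries, 10.8% had every OI value below every control value. Pcdhga2 passed that filter through its control values alone, which fixed its lack of overlap. With Pcdhgb2 in OI replicate 1 (3.18 FPKM) and Pcdhgb1 in OI replicate 3 (11.2 FPKM), 4 of the 6 libraries had a second row above 3 FPKM.

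The high values correspond to many reads assigned to these rows. The FPKM of the leading rows correspond to about 2905 reads for Pcdhgb1, 9252 for Pcdhgb2 and 9721 for Pcdhgb8 in control, and to 9662 for Pcdhgb6 and 10042 and 5258 for Pcdhga9 in OI, beside 9057 to 14079 for Pcdhgc3. These numbers can include reads of the shared exons. They are approximate for all of these rows except Pcdhgb6, the only 1 of them with a single annotated transcript. Among all 432 genes of the tables that reached 10 FPKM in a library, 23 (5.32%) had a highest library at least 10 times the median of the other 5, and 14 of these were highest in control replicate 1. Among the 354 genes highest in another library there were 9 (2.54%), of which 4 are gamma rows: Pcdhga9, Pcdhgb2, Pcdhgb6 and Pcdhgb8. Of the 5 members that reached 10 FPKM, 4 were of this kind and Pcdhgc3 was the exception. These counts are a description, made after the values were seen.

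The sums over the cluster depended on whether Pcdhgb8 was counted. The gamma FPKM outside Pcdhgc3, with Pcdhgb8 added, came to 31.1, 74.2 and 83.5 in control and 72.0, 63.6 and 58.9 in OI. Control replicate 1 was the lowest, the other 5 libraries lay within 58.9 to 83.5, and the 2 other control libraries were above all OI libraries. The group means were 62.9 ± 27.9 FPKM in control, 78.9 without control replicate 1, and 64.8 ± 6.66 in OI (SD, n = 3). Without Pcdhgb8 the sums were 31.1, 74.2 and 13.2 in control and 72.0, 63.5 and 58.8 in OI, so that leaving out the pseudogene row alone took control replicate 3 from the highest to the lowest place.

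The whole gamma cluster shows the same dependence on 1 row. The 20 members summed to 110, 161 and 88.8 FPKM in control (120 ± 37.2, or 125 without control replicate 1) and to 151, 146 and 141 in OI (146 ± 4.84). With Pcdhgb8 the control sums were 110, 161 and 159 FPKM (143 ± 28.9, or 160 without control replicate 1), and the OI mean stayed at 146 ± 4.84. Of this wider sum Pcdhgc3 held 71.8%, 53.9% and 47.5% in control and 52.4%, 56.6% and 58.4% in OI. All gamma rows beyond Pcdhgc3 and the next 2 rows together held between 3.46 and 6.73 FPKM in each library. Whether the library-specific rows carry reads of their own first exons or reads of the shared exons was not tested, because the tables hold no value per exon.

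**Figure D2:**
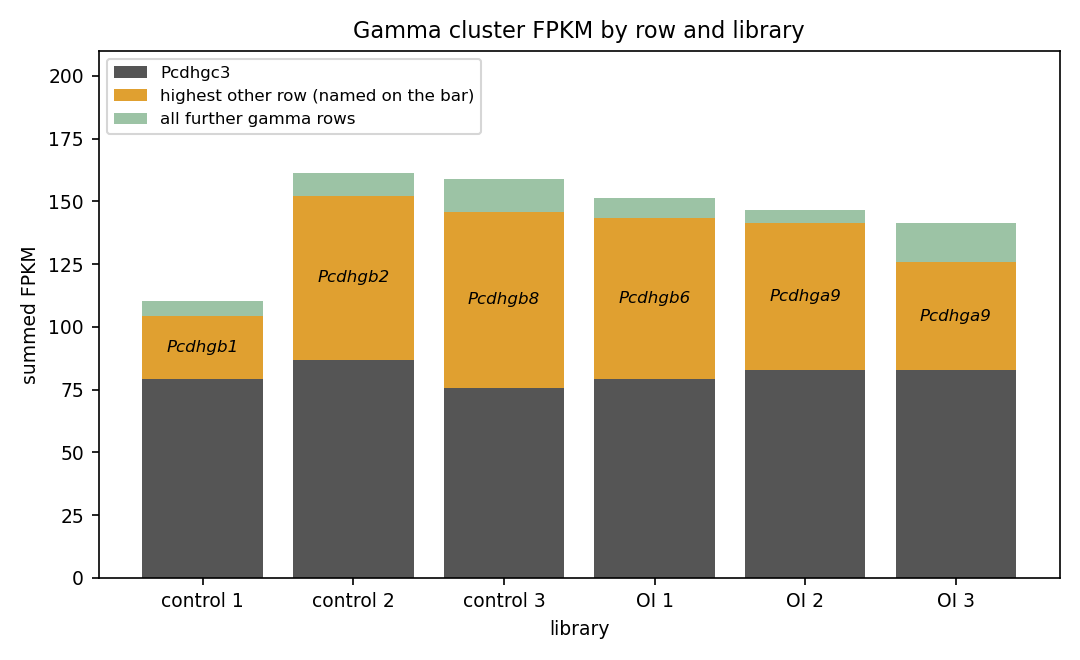
Summed FPKM of the gamma rows in each library, split into Pcdhgc3 (dark), the highest other row (orange, named on the bar) and all further gamma rows (green), with Pcdhgb8 included. The dark parts are of similar height (75.6 to 87.0 FPKM), the name on the orange part changes between most libraries, and control replicate 1 has the lowest bar.

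Another 2 gamma genes had no library far above the rest, with values of 0.796 to 1.75 FPKM. Pcdhga1, the first gamma gene, was listed at 1.35, 1.62 and 1.75 FPKM in control and 1.54, 1.50 and 1.16 in OI. Pcdhga6, a gamma-A gene, was listed at 1.305, 1.232 and 1.296 FPKM in control and 0.796, 0.984 and 1.13 in OI. The groups overlapped for Pcdhga1, and for Pcdhga6 all OI values were below all control values.

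With Pcdhgc3 these were the 3 members with 1 FPKM or more in at least 3 libraries, the filter used before testing. None of the 3 passed the threshold (limma, adjusted p under 0.05), where 48 of the 1737 genes tested (2.76%) did, and none had an unadjusted p under 0.05 (309 of the 1737 genes did). On the log2(FPKM + 1) scale Pcdhga1 differed by -0.10 ± 0.11 (SE; 95% interval -0.38 to 0.17; limma adjusted p = 0.715). Pcdhga6, with means of 1.28 ± 0.040 FPKM in control and 0.969 ± 0.166 in OI, differed by -0.21 ± 0.10 (95% interval -0.46 to 0.04; limma adjusted p = 0.353). The median over the 3 members was -0.10, and over all tested genes -0.02. A p above the threshold does not show that OI left these rows unchanged: the intervals of Pcdhga1 and Pcdhga6 reach -0.38 and -0.46. Pcdhga6 was the 1 member of the 3 whose groups did not overlap, which was so for 23.6% of all genes past the filter (12.5% with OI below control).

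**Figure D3:**
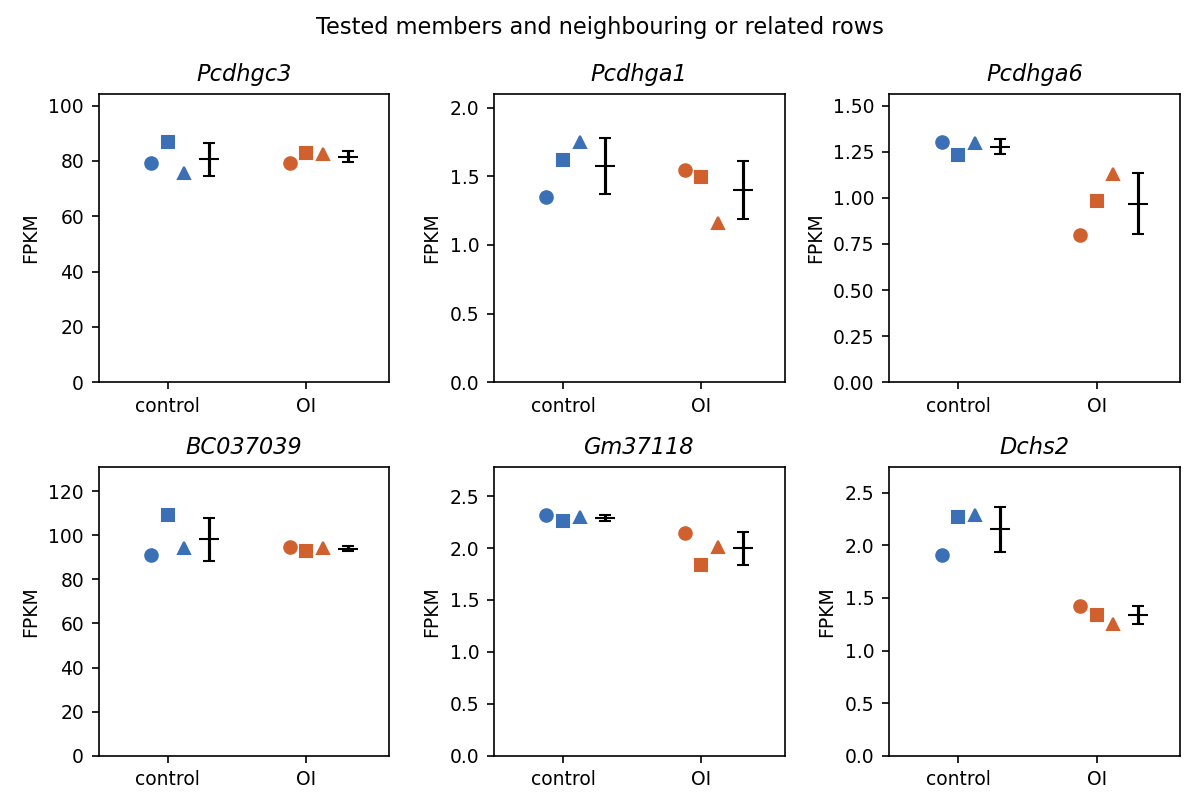
FPKM per library (symbols) with the mean and SD of each group (bars, n = 3) for the 3 tested members, the neighbouring antisense rows BC037039 and Gm37118, and Dchs2, each on its own axis from 0. The groups overlap for Pcdhgc3, Pcdhga1 and BC037039, and every OI value lies below every control value for Pcdhga6, Gm37118 and Dchs2.

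Lower filters brought in more members and no call. With 0.1 FPKM or more in 3 libraries and a pseudocount of 0.1, 11 members were tested and limma called none (lowest adjusted p 0.467, none with an unadjusted p under 0.05), against 45 of 5257 genes (0.856%). The lowest adjusted p was that of Pcdhga9, which differed by 4.05 ± 1.78 (log2, SE) through 2 high OI libraries. On read numbers recovered from FPKM, limma voom tested 14 members and called none (lowest adjusted p 0.251), against 62 of 3036 genes (2.04%). There 2 members had an unadjusted p under 0.05. Pcdhga6, at 151, 178 and 184 reads in control and 121, 169 and 137 in OI, differed by -0.42 ± 0.14 (log2, SE; voom adjusted p = 0.251). Pcdhga4, another gamma-A gene, differed by 1.04 ± 0.37 (voom adjusted p = 0.269). It was listed at 0.113, 0.0624 and 0.0564 FPKM in control and 0.132, 0.140 and 0.189 in OI, on 8 to 24 reads a library, and all OI values were above all control values. At the 0.1 FPKM filter, 4 of the 11 members had groups without overlap (Pcdhga4 higher in OI and Pcdhga2, Pcdhga3 and Pcdhga6 lower), against 17.3% of all genes past that filter, and 10.8% for OI below control. Pcdhga2 passed this filter through its control values alone, so the filter itself fixed its lack of overlap. Pcdhga4 reached 0.1 FPKM in all OI libraries but in control only in replicate 1. The count of 4 is a description only, and whether it exceeds the share over all genes was not tested.

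The other gamma genes were scarcely detected. Pcdhga5, Pcdhga7, Pcdhga8, Pcdhga10, Pcdhga11, Pcdhga12, Pcdhgb4, Pcdhgb5 and Pcdhgb7 had means of 0.0154 to 0.0937 FPKM over the 6 libraries. The highest single values among them were 0.206 for Pcdhga11 and 0.158 for Pcdhga5, both in control replicate 1. Without that library the highest values of these genes were 0.0901 and 0.0414. In all, 15 of the 20 gamma members were above 0 in all 6 libraries, and none was at 0 throughout.

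The alpha cluster was close to the detection limit in both groups. Of its 13 members, 6 were listed at 0 in all 6 libraries (Pcdha2, Pcdha5, Pcdha7, Pcdha8, Pcdha12 and the C-type Pcdhac1), and no member exceeded 0.15 FPKM in any library. At the median alpha length 1 read was worth 0.00516 to 0.00766 FPKM, so that a gene listed at 0 could have had up to 0.0155 to 0.0230 FPKM (3 reads, counting error only). All alpha members together took about 6.9, 14.9 and 26.7 reads in control and 22, 32.9 and 14.9 in OI. Their sums were 0.0535, 0.0916 and 0.160 FPKM in control (0.102 ± 0.0542) and 0.128, 0.168 and 0.109 in OI (0.135 ± 0.0299), with overlapping groups.

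Pcdha9 was the only alpha member above 0 in all 6 libraries. It was listed at 0.0153, 0.0859 and 0.0250 FPKM in control and 0.128, 0.139 and 0.0437 in OI, or 2, 14 and 4 reads against 22, 27 and 6. The groups overlapped, and limma voom gave 1.42 ± 0.83 (log2, SE; adjusted p = 0.477). The other alpha genes appeared in 1 or 2 libraries each. Pcdha3 was listed at 0.0688 FPKM in control replicate 3 only, and Pcdha1 at 0.0382 in control replicate 1 and 0.0291 in OI replicate 3. Pcdhac2, the alpha C-type gene next to the constant exons, was at 0.0623 in control replicate 3 and 0.0187 in OI replicate 2. Pcdha6 was at 0.0363 in OI replicate 3, and Pcdha4 and Pcdha11 stayed under 2 reads in every library.

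**Figure D4:**
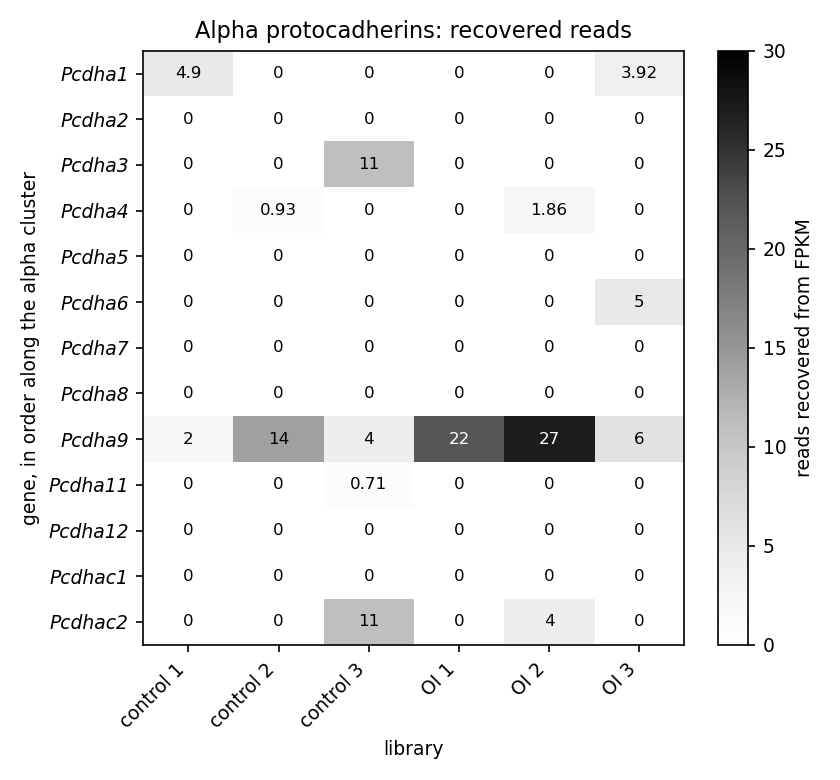
Reads recovered from FPKM for the 13 alpha members (rows) in each library (columns), shaded from 0 to 30 reads; numbers that are not whole belong to genes with more than 1 annotated transcript. Pcdha9 is the single row with reads in all 6 libraries, and 6 rows are 0 throughout.

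Rows of other genes inside the locus bear on how the members are read. BC037039 is an antisense gene on the minus strand at 37805718 to 37807922 (chromosome 18, mm10), and 70.7% of its exonic bases (1559 of 2205) lie within Pcdhgc3 exons. It was listed at 91.1, 109 and 94.2 FPKM in control and 94.7, 92.7 and 94.2 in OI. The groups overlapped (98.2 ± 9.66 against 93.9 ± 1.07 FPKM), and the difference was -0.06 ± 0.09 on the log2(FPKM + 1) scale (95% interval -0.27 to 0.15; limma adjusted p = 0.796), with the opposite sign under median-of-ratios scaling and quantile normalization. Since no source used here gives the strand setting of the authors' counting, reads of BC037039 and of the overlapping part of Pcdhgc3 cannot be told apart. Gm37118, an antisense gene whose 406 exonic bases all lie within Pcdhga1, was listed at 2.32, 2.26 and 2.30 FPKM in control and 2.15, 1.83 and 2.01 in OI. Its OI values were all below its control values, and the difference was -0.14 ± 0.08 (SE; limma adjusted p = 0.449), on 21 to 28 reads a library. Of all genes past the 1 FPKM filter, 12.5% had every OI value below every control value. Reads of Gm37118 and of the overlapping part of Pcdhga1 cannot be told apart either.

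Of 100 related genes on 5 lists (non-clustered protocadherins, large cadherins, classical cadherins and catenins, regulators of protocadherin promoters, and signalling partners) 3 were in the tables and 1 was tested. Dchs2, a large cadherin of the Dachsous family, was listed at 1.91, 2.27 and 2.29 FPKM in control and 1.43, 1.34 and 1.25 in OI, without overlap. The means were 2.16 ± 0.214 FPKM in control and 1.34 ± 0.0884 in OI. The difference of -0.43 ± 0.09 (SE; 95% interval -0.66 to -0.20) did not pass the threshold in limma on FPKM (adjusted p = 0.0946), and that of -0.69 ± 0.10 (SE) did in limma voom on recovered reads (adjusted p = 0.0219). Cdh1 (E-cadherin) and Cdh4 (R-cadherin) were listed above 0 only in control replicate 2, at 0.0143 and 0.00903 FPKM.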

How the data were processed

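The authors deposited 1 table of FPKM values per sample, and 6 tables of 27943 rows were used, of which 1 row with a broken annotation was left out. Reads were handled with StringTie 1.3.3b, HISAT2 2.1.0 and cutadapt 2.7 on mm10, per the submitters' processing notes. Strand setting and annotation release: not given in the sources used here. The members and the lists of related and marker genes were chosen with earlier results of these data known.

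Genes with 1 FPKM or more in at least 3 of 6 libraries were tested with limma 3.58.1 (R 4.3.3, trend=TRUE, two-sided) on log2(FPKM + 1), adjusted by Benjamini-Hochberg over the genes tested (threshold 0.05). This scale understates changes of low genes. Library sizes were recovered from the FPKM of genes with 1 exon: values there were whole multiples of 1 read, within 0.01, for 99.7% to 100% of values. Among the members, all 56 values between 0 and 1000 reads were whole within 0.05 for the 17 genes with 1 annotated transcript, and 10 of 59 for the 16 with more, so read numbers of the latter are approximate. Exon structure and 100-base windows came from GENCODE M21 (GRCm38); no sequence is printed.

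Named members were those with a mean of 1 FPKM or more and the 3 highest means in each class, and named non-members were listed genes in the tables and locus rows with a mean of 1 FPKM or more. Pcdhga3, Pcdhga4, Pcdhga5, Pcdhga11, Pcdha4, Pcdha6 and Pcdha11, Gm37446 and Gm38182 were named after their values were seen. Other pseudocounts, filters and scalings, limma voom on recovered reads, the replicate block and leaving out each library were tried. The sum with Pcdhgb8 was chosen after seeing the data. Python 3.11.15, pandas 2.3.3 and Matplotlib 3.10.9 made tables and figures.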

Additional observations from a re-analysis of the deposited data

How the results depend on the processing

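No member was called under any of the settings tried: pseudocounts of 0.1 and 5, no filter (27 members tested), the 0.1 FPKM filter, median-of-ratios scaling, quantile normalization, limma voom on recovered reads, the replicate block, and leaving out each library. Without a filter 1 member, Pcdhga9, had an unadjusted p under 0.05 in limma, as had 632 of 10948 genes. The lowest adjusted p of a member there was 0.734. The number of called genes, 48, fell to 14 of 10948 without a filter and to 15 to 27 when 1 library was left out. Same-numbered libraries showed little common deviation from their group means (correlations of 0.05, 0.14 and -0.08 for numbers 1 to 3 over 1737 genes). Differently numbered libraries were not compared, so these values cannot settle whether the replicate numbers pair the groups. With the replicate number as a block 17 genes were called and again no member. The difference of Pcdhgc3 was 0.02 with all libraries, 0.24 under quantile normalization (limma adjusted p = 0.285; unadjusted p under 0.05), and -0.0245 to 0.0755 when 1 library was left out, with the sign reversed without control replicate 3 (-0.0245). Pcdhga1 and Pcdhga6 were lower in OI under every setting named here. BC037039 reversed to 0.0138 under median-of-ratios scaling and 0.116 under quantile normalization, and ranged from -0.1103 to 0.0187 when 1 library was left out, reversed without control replicate 2; the cause was not tested. Dchs2 passed the threshold under limma voom alone (-0.69, adjusted p = 0.0219; 0.0878 to 0.370 under the other settings). Members without overlap rose from 1 to 4 with the 0.1 FPKM filter, which counts more members and which Pcdhga2 passed through its control values alone. When only the 3 members past the 1 FPKM filter entered it, the gamma sum moved from 146 to 83.9 FPKM in OI and from 120 to 83.4 in control. The leading rows do not pass that filter. No alpha member passes, so the alpha sum could not be made. Depth limits the alpha genes: 3 reads are worth up to 0.0230 FPKM at their median length.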

Other observations

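Further rows within the locus were chosen after their values were seen. Gm37446, an antisense gene on the minus strand at 37433412 to 37437547 (chromosome 18, mm10), has 46.6% of its exonic bases (1927 of 4136) within Pcdhb12 exons. It was listed at 0.643, 0.650 and 0.806 FPKM in control and 0.294, 0.400 and 0.433 in OI, so the groups did not overlap (0.700 ± 0.0923 against 0.376 ± 0.0729; SD, n = 3). The difference in limma voom was -0.92 ± 0.20 (log2, SE; adjusted p = 0.0944). No Pcdhb gene was analysed here, so the row cannot be set beside the gene it overlaps.

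Gm38182, a processed transcript on the plus strand whose 1530 exonic bases all lie within Pcdhgc5 exons, 628 of them in exons shared by the gamma cluster, was listed at 1.12, 0.921 and 0.697 FPKM in control and 0.631, 0.450 and 0.102 in OI. Its groups did not overlap either, and limma voom gave -1.24 ± 0.51 (log2, SE; adjusted p = 0.324) on 2.6 to 27.9 reads a library. Values per gene do not tell its reads apart from those of Pcdhgc5. Gm37446 and Gm38182 both passed the 0.1 FPKM filter, past which 17.3% of all genes had groups without overlap (10.8% with OI below control). Gm42416, Gm37013 and Gm37388, protein-coding rows that join an alpha first exon to gamma shared exons, were listed at 0 in all 6 libraries.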
